A study of Mus musculus with 14 samples.

Results

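The core proteins of heparan sulfate proteoglycans were followed in Y1 cells, a mouse adrenocortical tumour line, given serum with or without FGF-2. The 10 genes were taken from a list of names: the syndecans Sdc1, Sdc2, Sdc3 and Sdc4, the glypicans Gpc1, Gpc3, Gpc4 and Gpc6, perlecan (Hspg2) and agrin (Agrn). All 10 were among the 24465 genes of the count tables, and 59 of 40772 H3K27ac regions carried one of their symbols. The cells of both groups were starved of serum for 48 h and were then stimulated for 5 h. One group received 10% fetal bovine serum with 10 ng/ml FGF-2 and the other received 10% fetal bovine serum alone. RNA was read in 3 libraries per group, and H3K27ac, the acetylated form of histone H3 at lysine 27 that is found at active promoters and enhancers, in 2 libraries per group. Both groups are 1 cell line, and the labels do not say whether the libraries of a group came from separate cultures, so p-values measure the spread between these libraries.

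Heparan sulfate proteoglycans are proteins to which long sulfated sugar chains are attached in the Golgi. The chains bind FGF-2 and hold it against its receptor tyrosine kinases, so the cores that carry them serve as co-receptors of the factor given here. Syndecans cross the membrane and bind scaffold and cytoskeletal proteins inside the cell, glypicans are held by a lipid anchor, and perlecan and agrin are secreted into basement membranes.

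The RNA libraries held 6403095 to 12696426 gene counts with FGF-2 and 5625004 to 9101089 with serum alone. Of 12 adrenocortical markers, whose summed level was 2355 to 3840 CPM with FGF-2 and 852 to 1106 CPM with serum alone, Star rose 13.9-fold, and Cyp11a1, Cyp11b1 and Fdxr fell by 0.76, 1.40 and 1.02 on the log2 scale (edgeR). CPM is TMM-scaled counts relative to library size. Star averaged 2296 CPM with FGF-2 and 165 CPM with serum alone, and made up most of the summed level with FGF-2. The adrenocortical regulator Nr5a1, which did not pass the test, averaged 71.3 ± 9.80 CPM with FGF-2 and 74.3 ± 9.34 CPM with serum alone (SD, n = 3 each). Mc2r, another of these markers, had at most 2 counts in a library. Nr0b1 and Cyp21a1, which are also markers of these cells, were listed at 0 in all 6 libraries. A count of 0 could not be read as absence of a transcript. Of 6631 genes with an H3K27ac region of signal 100 or more within 1 kb of the start site, 462 (6.97%) had no count in any library, among them Ddx5, Rac1 and Ywhaz. The summed level of 9 markers of fibroblasts and adrenal capsule was 2042 to 2916 CPM with FGF-2 and 2811 to 3509 CPM with serum alone, with Col1a2 and Dcn at 0. Most of this sum was Col1a1, which averaged 2100 CPM with FGF-2 and 2938 CPM with serum alone. Lum, Pdgfra and Rspo3 averaged at most 1.21 CPM in either group. The summed level of 7 markers of adrenal medulla was 1.5 to 2.7 CPM with FGF-2 and 5.4 to 7.0 CPM with serum alone, with Th and Dbh at 0. Nearly all of it was Ddc, which averaged 2.03 CPM with FGF-2 and 6.16 CPM with serum alone. On the first principal component the FGF-2 libraries lay at -47.9 to -32.8, serum library 3, which had the fewest counts, at 27.1 and the other serum libraries at 44.8 and 45.8. The part of these differences in the results was not tested, other than by leaving out each library.

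Syndecan 1 and syndecan 4 rose with FGF-2, syndecan 3 and glypican 4 fell, and syndecan 2, glypican 6, perlecan and agrin did not pass the test. Thus 2 of 8 tested cores rose, against 22.1% of 10374 tested genes, and 2 fell, against 24.2%. In 4 of 8 the groups did not overlap, against 57.5% of all tested genes. These shares are near the background, and the median of the tested cores, as a log2 fold change, was -0.14 beside -0.02 for all genes.

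Because the H3K27ac and RNA changes below are set against the start sites of these genes, the 250 bases before the start site of the 4 cores that changed are shown, from RefSeq on GRCm38.p6. Capitals mark GGGCGG or its reverse complement CCGCCC, the core of the GC box bound by Sp-family factors.
Sdc1 (chr12:8771146-8771395, plus strand): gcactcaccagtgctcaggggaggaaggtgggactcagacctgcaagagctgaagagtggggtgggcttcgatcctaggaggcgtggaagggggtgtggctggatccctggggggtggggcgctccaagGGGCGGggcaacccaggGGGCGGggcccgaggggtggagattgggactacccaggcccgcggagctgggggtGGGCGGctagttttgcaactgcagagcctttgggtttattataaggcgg
Sdc4 (chr2:164443189-164443438, minus strand): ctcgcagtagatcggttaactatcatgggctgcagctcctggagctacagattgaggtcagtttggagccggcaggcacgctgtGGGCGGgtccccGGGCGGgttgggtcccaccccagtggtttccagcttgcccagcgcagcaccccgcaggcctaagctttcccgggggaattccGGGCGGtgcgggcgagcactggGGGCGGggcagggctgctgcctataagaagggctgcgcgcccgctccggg
Sdc3 (chr4:130792287-130792536, plus strand): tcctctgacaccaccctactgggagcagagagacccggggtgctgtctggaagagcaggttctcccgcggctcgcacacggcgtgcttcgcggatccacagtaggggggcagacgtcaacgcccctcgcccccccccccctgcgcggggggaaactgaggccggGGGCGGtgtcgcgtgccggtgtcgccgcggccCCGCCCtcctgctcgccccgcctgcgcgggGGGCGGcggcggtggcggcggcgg
Gpc4 (chrX:52164924-52165173, minus strand): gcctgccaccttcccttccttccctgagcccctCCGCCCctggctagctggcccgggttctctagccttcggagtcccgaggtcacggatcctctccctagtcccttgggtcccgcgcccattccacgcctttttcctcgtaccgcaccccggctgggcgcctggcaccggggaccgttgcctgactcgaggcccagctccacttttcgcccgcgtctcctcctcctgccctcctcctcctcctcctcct
Both cores that rose held the motif, 3 times before Sdc1 and 4 times before Sdc4. Both cores that fell held it as well, 3 times before Sdc3 and once before Gpc4. Of the cores that did not pass or were not tested, Hspg2, Agrn and Gpc3 held it too, so that all 8 windows found for the cores had it. It was found in 32.7% of 32817 mouse promoter windows of the same length. None of the 4 windows held the AP-1 motif TGANTCA, present on either strand in 6.75% of all windows, or the ETS motif CCGGAAG, present in 6.90%. None held the CRE motif TGACGTCA, present in 1.55%, or the TATA motif TATAAA, present in 12.4%. A RefSeq window was found for 7 of the 10 cores.

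Sdc1, a syndecan that binds FGF-2 through its chains, had 3220, 2691 and 2843 CPM with FGF-2, against 287, 430 and 657 CPM with serum alone. Every FGF-2 library lay above every serum library, and the serum libraries spread further in proportion than the FGF-2 libraries. The mean was 2918 ± 273 CPM with FGF-2 and 458 ± 187 CPM with serum alone (SD, n = 3 each), 6.37-fold higher with FGF-2. The log2 fold change was 2.67 ± 0.28 (SE), with an adjusted p of 0.000147 by edgeR's quasi-likelihood test with Benjamini-Hochberg adjustment, and it ranked 176 of 10374. Without serum library 3 it was 3.02.

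Sdc4, the syndecan found at focal adhesions, had 2996, 2777 and 2950 CPM with FGF-2, against 857, 1027 and 1398 CPM with serum alone. The FGF-2 libraries lay close together and above all serum libraries. The log2 fold change was 1.41 ± 0.19 (2.66-fold), with an adjusted p of 0.000281 in edgeR, and it ranked 466. Without serum library 3 it was 1.63.

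Sdc3, a syndecan best known from the nervous system, moved the other way. It had 284, 231 and 155 CPM with FGF-2, against 385, 537 and 346 CPM with serum alone, with no overlap and the lowest value in FGF-2 library 3. Its log2 fold change was -0.92 ± 0.24, with an adjusted p of 0.0152 in edgeR. This call was lost without the filter on low counts, at an adjusted p of 0.0568.

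Sdc2, a syndecan of mesenchymal cells, had 216, 376 and 276 CPM with FGF-2, against 280, 209 and 288 CPM with serum alone. The groups overlapped, and the log2 fold change of 0.16 ± 0.21 did not pass (adjusted p = 0.550, edgeR). Its sign turned without FGF-2 library 2, at -0.072, and with scaling to library totals, at -0.18.

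Of all reads in the 4 syndecan genes, Sdc1 took 46.0 ± 1.84% with FGF-2 and 19.9 ± 4.30% with serum alone (SD, n = 3 each). Sdc3 took 3.51 ± 0.902% with FGF-2 and 19.5 ± 5.95% with serum alone, and Sdc2 took 4.61 ± 1.49% with FGF-2 and 11.9 ± 3.18% with serum alone. Sdc4 took 45.9 ± 1.40% with FGF-2 and 48.6 ± 2.91% with serum alone. The share of Sdc1 was thus higher in every FGF-2 library than in any serum library, while that of Sdc4 differed by about the spread between libraries. These shares are of reads and depend on transcript length, so they do not compare 1 gene with another. The 4 shares of a library make up a whole, so a share can change without a change in its own gene. That of Sdc2 was lower with FGF-2 although its RNA did not pass the test. That of Sdc4 differed little although its RNA rose.

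**Figure D1:**
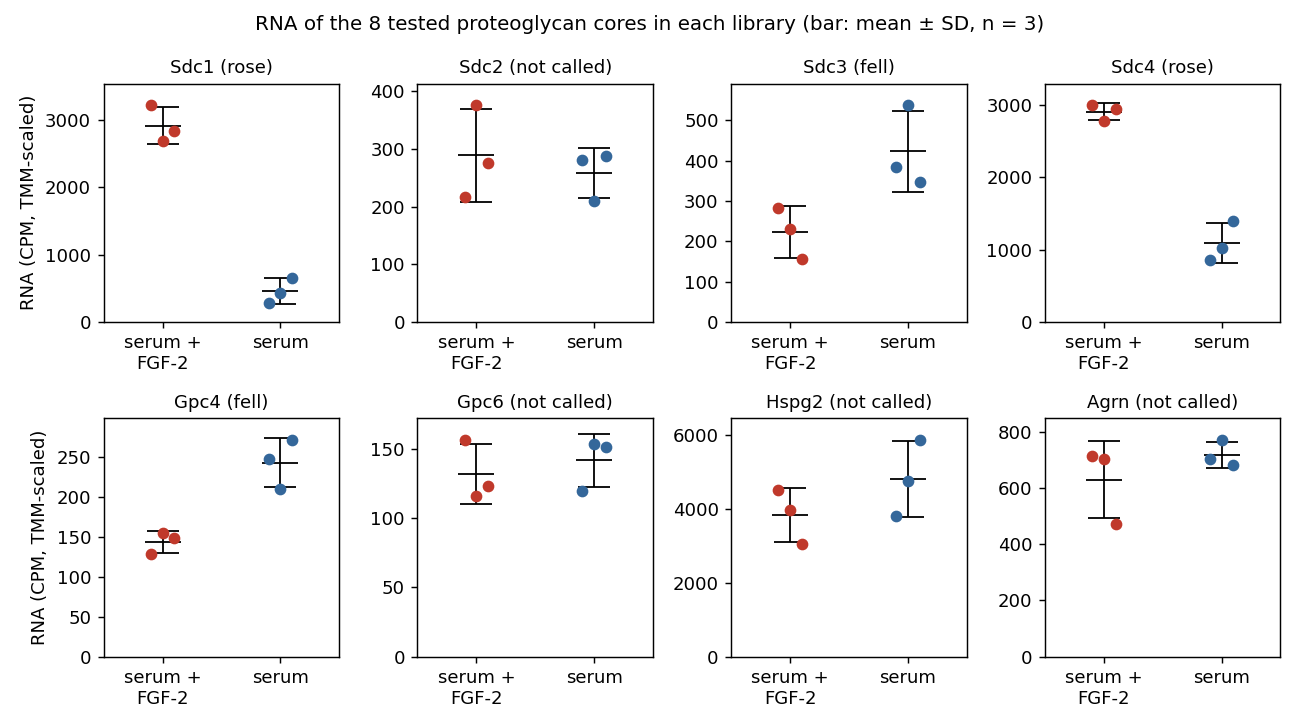
RNA of the 8 tested cores in TMM-scaled CPM (y axis, from 0, its own range per gene), with a point per library, serum + FGF-2 left of serum, and the mean ± SD (n = 3). Sdc1 lies between 2691 and 3220 CPM with FGF-2 and between 287 and 657 CPM with serum alone, and Sdc4 also lies higher, while Sdc3 and Gpc4 lie lower in every FGF-2 library.

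Among the glypicans, Gpc4 had 129, 155 and 148 CPM with FGF-2, against 248, 210 and 271 CPM with serum alone. No FGF-2 library reached the lowest serum library. The log2 fold change was -0.75 ± 0.13, with an adjusted p of 0.00111 in edgeR. Gpc6 had 157, 116 and 124 CPM with FGF-2, against 120, 154 and 152 CPM with serum alone. Its groups overlapped and the log2 fold change of -0.10 ± 0.14 did not pass (adjusted p = 0.587, edgeR).

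Gpc3 and Gpc1 were too low to be tested. Gpc3 had 3, 6 and 1 counts with FGF-2, against 4, 3 and 3 counts with serum alone. Gpc1 had 1 count in FGF-2 library 3 and none in the other libraries. As the limit that a count of 0 allows, 3 counts were taken. Relative to raw library totals, without TMM scaling, this floor was 0.236 CPM in the deepest library and 0.533 CPM in the shallowest. It covers counting error only.

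The secreted cores did not pass the test. Hspg2, which encodes the basement membrane proteoglycan perlecan, had 4493, 3974 and 3048 CPM with FGF-2, against 3799, 4742 and 5853 CPM with serum alone. The groups overlapped, and the log2 fold change was -0.32 ± 0.21 (adjusted p = 0.222, edgeR). Agrn, whose product organises the neuromuscular synapse, had 712, 704 and 473 CPM with FGF-2, against 702, 770 and 681 CPM with serum alone. FGF-2 library 3 was the lowest of the 6, and the log2 fold change was -0.19 ± 0.17 (adjusted p = 0.372, edgeR). When libraries were scaled to their totals only, the median of all genes shifted to -0.36 and Hspg2, Agrn and Gpc6 were called lower, at -0.65, -0.52 and -0.44.

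Over the 6 libraries, the genes whose profile was most like that of Sdc1 were Cyth4, Timp1 and Nrcam, with root-mean-square differences of 0.0959, 0.185 and 0.192 in centred log2(CPM + 1) among 8761 genes. For Sdc4 they were Mllt11, Abhd1 and Peak1, at 0.0551, 0.0697 and 0.0763. The profile is mostly the difference between the groups and the higher level of serum library 3. Timp1, an inhibitor of matrix metalloproteinases, had 5751, 5555 and 6178 CPM with FGF-2, against 457, 701 and 1411 CPM with serum alone.

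Genes that act with the cores were read from lists chosen with earlier results known. Of 10 proteins that bind syndecans inside the cell or act just downstream, all were tested, 7 rose, against 22.1% of all tested genes, and 1 fell, against 24.2%, with a median log2 fold change of 0.73 beside -0.02 for all genes. The scaffold Sdcbp (syntenin), which binds the syndecan tail, averaged 193 ± 39.1 CPM with FGF-2 and 88.7 ± 7.67 CPM with serum alone (SD, n = 3 each), a log2 fold change of 1.12 ± 0.15 (adjusted p = 0.000277, edgeR). Its relative Sdcbp2 averaged 24.1 ± 9.30 CPM with FGF-2 and 2.13 ± 1.60 CPM with serum alone, at 3.61 ± 0.47. The membrane linker Ezr rose by 0.94 ± 0.15 on the log2 scale. The kinases Prkca and Src rose by 0.93 ± 0.19 and 0.57 ± 0.10. Cttn and Pdcd6ip rose as well, Gipc1 fell by 0.35, and Cask and Tiam1 did not pass.

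Of 5 FGF receptor genes, 4 were tested, none rose and Fgfr4 fell, against the same shares. Fgfr4 averaged 0.701 ± 0.107 CPM with FGF-2 and 4.42 ± 0.985 CPM with serum alone (SD, n = 3 each), resting on 4 to 9 counts per FGF-2 library and 24 to 58 per serum library. Fgfr1, a main receptor of FGF-2, averaged 213 ± 14.8 CPM with FGF-2 and 188 ± 8.12 CPM with serum alone, and its log2 fold change of 0.18 ± 0.10 did not pass (adjusted p = 0.166, edgeR). Fgfr2 averaged 0.930 CPM with FGF-2 and 1.68 CPM with serum alone, and the decoy-like Fgfrl1 averaged 26.7 CPM with FGF-2 and 27.7 CPM with serum alone, neither passing. Fgfr3 had at most 4 counts in a library and was not tested.

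Of 12 enzymes for the linker and the polymer of the chains, 9 were tested, 1 rose and 3 fell, with a median of -0.16. Of all tested genes 22.1% rose and 24.2% fell. Xylt2, which starts chains on the core, averaged 65.4 ± 17.2 CPM with FGF-2 and 131 ± 7.78 CPM with serum alone (SD, n = 3 each), a log2 fold change of -0.99 ± 0.17 (adjusted p = 0.00147, edgeR). The polymerase subunit Ext1 fell by 0.38 ± 0.10 and Ugdh, which makes the UDP-glucuronate substrate, fell by 0.63 ± 0.13. The kinase Fam20b, which phosphorylates the linker xylose, rose by 0.40 ± 0.10. With upper-quartile scaling, which moved the median of all genes to -0.16, none rose and 5 fell.

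Of 22 genes for modification and sulfation, 8 were tested, 4 rose, against 22.1% of all tested genes, and 2 fell, against 24.2%, with a median of 0.42. The epimerase Glce averaged 223 ± 6.13 CPM with FGF-2 and 114 ± 40.0 CPM with serum alone (SD, n = 3 each), a log2 fold change of 0.97 ± 0.21 (adjusted p = 0.00651, edgeR). The N-deacetylase/N-sulfotransferase Ndst2, the 6-O-sulfotransferase Hs6st1 and the sulfate donor transporter Slc35b3 also rose. Hs6st2, of the same enzyme family as Hs6st1, fell by 1.07 ± 0.29 and the donor synthase Papss1 fell by 0.78 ± 0.15. With library totals only, 1 of the 8 rose, beside 1035 of all 10374 tested genes. Ndst1, Hs2st1 and Ext2 were listed at 0, with start-site H3K27ac signals of 892, 133 and 27.6.

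Of 14 genes for shedding of the cores or release from the chains, 9 were tested, 2 rose and 2 fell, near the shares of 22.1% and 24.2% of all tested genes, with a median of 0.11. Plat and Plau, the plasminogen activators, rose. Plat had 3763, 4210 and 5465 CPM with FGF-2, against 247, 230 and 517 CPM with serum alone, with no overlap and a log2 fold change of 3.76 ± 0.35 (adjusted p = 0.000127, edgeR). The membrane proteases Adam10 and Mmp14 fell by 0.77 ± 0.12 and 0.81 ± 0.17, and Adam17, a syndecan sheddase, did not pass at 0.11 ± 0.11.

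Among 12 receptors and matrix partners of agrin and perlecan, 8 were tested, 1 rose, against 22.1% of all tested genes, and 3 fell, against 24.2%, with a median of -0.24. The agrin receptor Lrp4 averaged 30.8 ± 5.35 CPM with FGF-2 and 73.6 ± 1.83 CPM with serum alone (SD, n = 3 each), a log2 fold change of -1.24 ± 0.13 (adjusted p = 9.11e-05, edgeR). Dystroglycan (Dag1) fell by 0.98 ± 0.15 and Rapsn fell by 0.70 ± 0.12, while the integrin chain Itgb1 rose by 1.29 ± 0.21. The 4 laminin chains Lama1, Lama5, Lamb1 and Lamc1 did not pass. Of 11 other proteoglycan cores and co-receptors, 6 were tested, 1 rose and 2 fell, against the same shares. Cd44, a hyaluronan receptor with forms that carry heparan sulfate, rose by 1.90 ± 0.36, and Tgfbr3 and Cspg4 fell by 1.40 ± 0.19 and 1.86 ± 0.22.

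H3K27ac was read in regions that the authors had assigned to the gene with the nearest start site, so a symbol does not show which gene a region acts on. The signal is reads per region divided by a factor per library. The test was limma on log2(signal + 1) with 2 libraries per group, whose adjusted p-values lean on the spread of all regions. Regions are therefore led by those that also passed edgeR on recovered reads and the false discovery rate in the authors' deposited table. Of the 59 regions, limma called 15 higher with FGF-2, against 12.6% of all regions, and 1 lower, against 3.73%. On recovered reads, edgeR called 11 higher, against 10.6%, and 2 lower, against 6.69%. By the false discovery rate of the authors' deposited table, 10 were higher, against 8.33%, and none lower, against 1.64%. These 10 passed all 3 tests, which use the same 4 libraries. Of them, 5 lay at Sdc1, 3 at Gpc1 and 2 at Gpc6. Some of the 10 had no MACS2 peak in either serum library. These were Sdc1 at 6.46, 12.02 and 34.3 kb, Gpc1 at 79.3 and 43.9 kb, and both of Gpc6. Every core region had a peak in at least 2 libraries, so these were listed through the FGF-2 libraries, where they are high. Their p-values are therefore not free of how the regions were chosen. Without either FGF-2 library, which leaves 1 library in that group, limma called fewer core regions higher. It also called fewer of all regions higher in these runs, so the drop is not particular to the cores.

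At the start sites, no change passed any of the 3 tests. A region covered the start site of 8 cores, Gpc1 and Gpc3 having none, and the limma interval of all 8 included 0. The region over the Sdc1 start (chr12:8771384-8773838, mm10) had signals of 179 and 237 with FGF-2, against 221 and 163 with serum alone. The groups overlapped, and the log2 difference was 0.12 with a 95% confidence interval of -0.38 to 0.62 (limma adjusted p = 0.851). The region over the Sdc4 start (chr2:164441030-164444509) had 355 and 358 with FGF-2, against 345 and 294 with serum alone, a log2 difference of 0.16 (-0.32 to 0.64). Both intervals end below the RNA log2 fold change of the gene, but H3K27ac signal and RNA are different measures whose sizes are not directly comparable. At the cores whose RNA fell, the start-site differences were 0.01 (-0.58 to 0.60) for Sdc3 and -0.38 (-0.96 to 0.19) for Gpc4. The printed windows before Sdc4, Sdc3 and Gpc4 lay wholly inside these regions, and that before Sdc1 shared its last 12 bases.

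**Figure D2:**
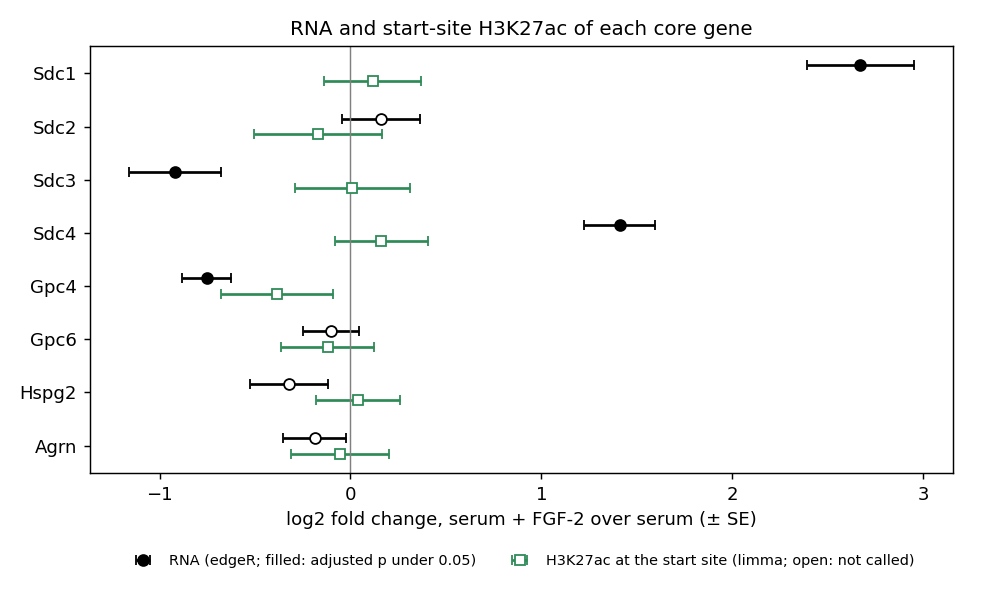
Log2 fold change (x axis, ± SE) of RNA (circles, n = 3 per group) and of H3K27ac at the start site (squares, n = 2 per group) for 8 cores, with filled symbols for an adjusted p under 0.05. Sdc1 RNA is at 2.67 while its start-site mark is at 0.12, and no square is filled. RNA and H3K27ac are different measures, so their sizes are not directly comparable.

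Away from its start site, the mark at Sdc1 was higher with FGF-2. Limma called 6 of its 7 regions higher with FGF-2. The intronic region 12.02 kb into the gene (chr12:8783419-8785092) had signals of 107 and 67 with FGF-2, against 0.92 and 6.69 with serum alone. One serum library was at the floor of 1 read, so the log2 difference of 4.48 ± 0.47 depends on the pseudocount (limma adjusted p = 1.42e-18, and 0.000353 in the authors' deposited table). MACS2 called peaks there in both FGF-2 libraries, 11.1- and 10.1-fold over background, and in neither serum library. Each core region had a peak in at least 2 of the 4 libraries. A region without serum peaks therefore had to have both FGF-2 peaks, and the peak calls are not separate evidence. The p-values of such a region are not free of this selection either. Downstream of the gene, the region at 55.1 kb (chr12:8826447-8827103) had 77.0 and 62 with FGF-2, against 10.1 and 5.85 with serum alone, a log2 difference of 3.01 ± 0.41 (limma adjusted p = 6.53e-11). The region beside it at 55.8 kb had 123 and 82 with FGF-2, against 23.0 and 25.1 with serum alone, at 2.02 ± 0.33. In all 3 regions both FGF-2 libraries lay above both serum libraries, and the limma call held under every alternative run.

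The remaining Sdc1 regions were weaker. The intronic region at 6.46 kb had 16.2 and 13 with FGF-2, against 0.92 and 0.84 with serum alone, and the intergenic region at 34.3 kb, past the end of the gene, had 22.8 and 18 with FGF-2, against 0.92 and 0.84 with serum alone. Both serum libraries were at the floor of 1 read, so no fold is given. The region at 57.8 kb had 18.1 and 9 with FGF-2, against 0.92 and 2.51 with serum alone, and missed the threshold in the authors' deposited table (0.0799). Without either FGF-2 library, these 3 lost the limma call, leaving 3 of 7. With edgeR on recovered reads, 5 or 6 of the 7 were called with any 1 library left out.

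The next 6 regions downstream, at 82.3 to 104.6 kb from the Sdc1 start, were assigned to Laptm4a and were looked at after the Sdc1 values were seen. In each of them both FGF-2 libraries lay above both serum libraries, as in 33.6% of all regions. By the authors' deposited table, 2 of the 6 passed, and the others had false discovery rates of 0.0942, 0.0750, 0.0777 and 0.503. The region at 82.3 kb had 142 and 86 with FGF-2, against 46.0 and 28.4 with serum alone, with a false discovery rate of 0.000543 in the authors' deposited table. At the next 2 regions, at 117.5 and 121.5 kb, the groups overlapped. Upstream, the nearest region lay 94.9 kb before Sdc1 and belonged to Pum2.

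**Figure D3:**
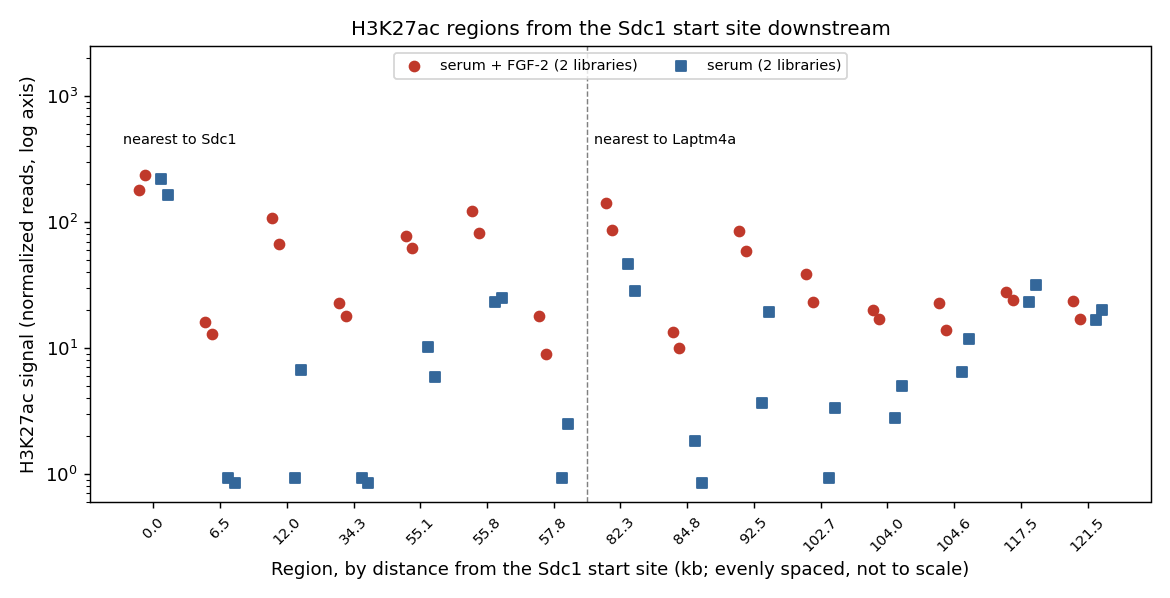
H3K27ac signal (y axis, log scale, normalized reads) of each library at the 7 regions nearest to Sdc1 and the next 8 regions downstream (x axis, ordered by distance from the Sdc1 start in kb, evenly spaced), with FGF-2 as circles left of serum as squares. The groups overlap at the start site and at 117.5 and 121.5 kb, and FGF-2 lies above serum at the 12 regions between.

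Sdc4 also rose in RNA. Of its 8 regions limma called 1, an intronic region 4.2 kb into the gene with 37.1 and 30 with FGF-2, against 12.9 and 15.0 with serum alone. It did not pass edgeR or the authors' deposited false discovery rate. The strongest region, 5.94 kb into the gene, had 452 and 465 with FGF-2, against 372 and 336 with serum alone, a log2 difference of 0.37 ± 0.24 that did not pass (limma adjusted p = 0.337).

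At Sdc3, whose RNA fell, no region passed. Its strongest region, in the intron 3.01 kb from the start, had 338 and 251 with FGF-2, against 191 and 196 with serum alone. Both FGF-2 values were the higher ones, opposite in direction to the RNA, at a log2 difference of 0.59 (limma adjusted p = 0.0959). At Gpc4, all 5 regions had differences below 0. The region 34.6 kb upstream (chrX:52199476-52199961), between Gpc4 and its neighbour Gpc3, had 7.61 and 11 with FGF-2, against 24.9 and 24.2 with serum alone. Limma and edgeR called it lower (limma log2 difference -1.33 ± 0.50, adjusted p = 0.0465), and the authors' deposited table did not. Its limma call was lost without any 1 of the 4 libraries. The strongest Gpc4 region, 95.9 kb upstream, had 104 and 103 with FGF-2, against 140 and 145 with serum alone. Of the 3 tests, edgeR alone called it lower (adjusted p = 0.0368).

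Regions of Gpc1 and Gpc6 gained the mark, while Gpc1 had 1 RNA count in all and the RNA of Gpc6 did not pass its test. The 6 Gpc1 regions lay 31.3 to 79.3 kb upstream. The strongest (chr1:92769390-92770411) had 109 and 105 with FGF-2, against 51.6 and 61.0 with serum alone, a log2 difference of 0.92 ± 0.29 (limma adjusted p = 0.0138). Those at 79.3 and 43.9 kb also passed all 3 tests, at 1.71 ± 0.44 and 2.33 ± 0.69. The region at 62.5 kb had 30.4 and 19 with FGF-2, against 10.1 and 7.52 with serum alone, and passed limma (adjusted p = 0.0438) but not the other tests. The nearest region to the Gpc1 start, 31.3 kb away, had 18.1 and 22 with FGF-2, against 7.37 and 8.36 with serum alone, and did not pass. At the 3 that passed all tests, the limma call was lost without FGF-2 library 1 and at 2 of them also without FGF-2 library 2. In Gpc6, a gene that spans 1055 kb, a pair of intronic regions about 656 kb from the start passed all 3 tests. One (chr14:117581117-117581669) had 31.4 and 19 with FGF-2, against 0.92 and 0.84 with serum alone, which is the floor of 1 read. The other (chr14:117582122-117582549) had 26.6 and 24 with FGF-2, against 0.92 and 5.85 with serum alone. Neither had a peak in a serum library, and both lost the limma call without FGF-2 library 1. As every core region had a peak in at least 2 libraries, the missing serum peaks are not separate evidence. The p-values of this pair are not free of that selection either. The region over the Gpc6 start had 312 and 300 with FGF-2, against 387 and 286 with serum alone. A region 50.2 kb into Gpc6 had 35.2 and 30 with FGF-2, against 7.37 and 16.7 with serum alone, and passed limma (adjusted p = 0.0109) but not the other tests.

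Of 13 Hspg2 regions, limma called 1 higher, 37.4 kb into the gene, with 44.7 and 35 with FGF-2, against 20.3 and 15.9 with serum alone. It did not pass the other tests. The region over the Hspg2 start, 10101 bp wide, had 1237 and 1321 with FGF-2, against 1438 and 1075 with serum alone. The single regions of Sdc2 and Agrn lay at their starts and overlapped between groups. That of Sdc2 had 31.4 and 54 with FGF-2, against 50.65 and 42.6 with serum alone, and that of Agrn had 171 and 192 with FGF-2, against 238 and 150 with serum alone. MACS2 peaks overlapped 54 and 56 of the 59 regions in the FGF-2 libraries (91.5% and 94.9%), against 37 and 44 in the serum libraries (62.7% and 74.6%). Over all 40772 regions the shares were 88.8% and 86.1% in the FGF-2 libraries, against 83.9% and 81.2% in the serum libraries. Every one of the 59 regions had a peak in at least 2 libraries, so their shares are not separate from which regions were listed. The peak lists held 50317 and 46712 peaks with FGF-2, against 44340 and 41975 with serum alone, and the second serum library was called against a far deeper input, whose part was not tested. All libraries had a peak for 9 of 10 cores, and Gpc3 had no region.

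**Figure D4:**
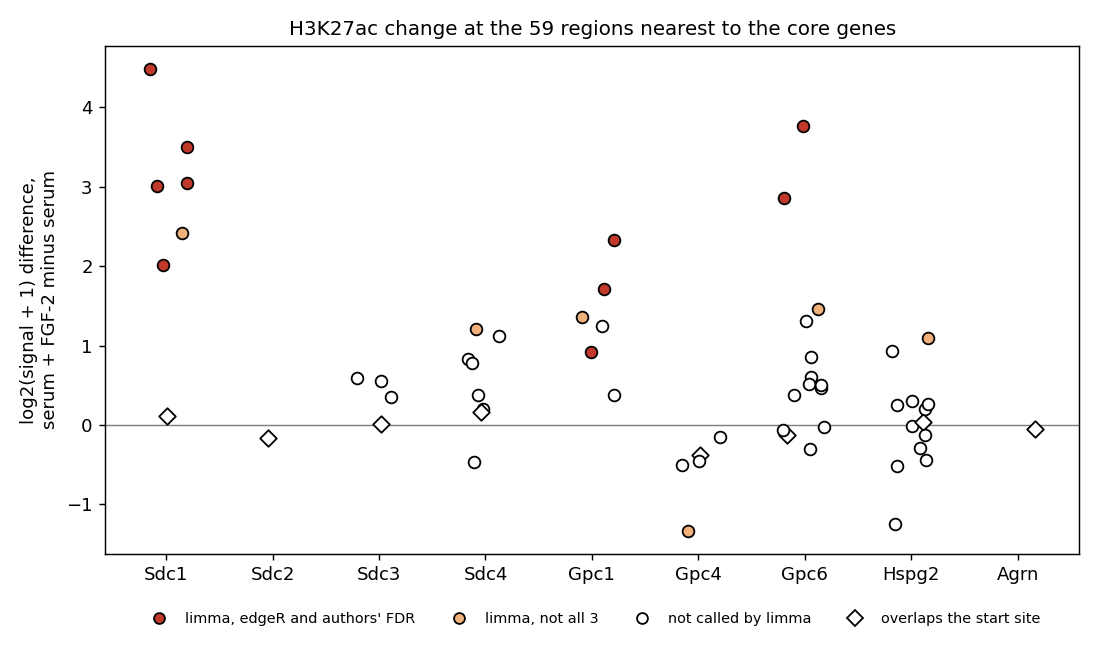
Difference in log2(signal + 1), serum + FGF-2 minus serum (y axis), at each of the 59 regions by nearest core (x axis, points spread sideways), with diamonds for regions over a start site. The 10 regions that passed all 3 tests are at Sdc1, Gpc1 and Gpc6, and no diamond is among them.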

How the data were processed

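Reads were processed by the authors. Per the submitters' processing notes, the tools included STAR 2.5.2a and HTSeq 0.10.0, MACS2 2.2.6 and bedtools 2.15.0, also DESeq2, DiffBind and ChIPseeker, and mm10 was the build. The RNA files the authors deposited hold unnormalized counts of reads for each gene. Strand setting and annotation: not given in the sources used here. Values of overlapping and antisense genes are uncertain for that reason. Library sizes left out the 37.0% to 43.2% of reads with no single gene.

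Peaks were called per library against its own input, per the file headers, which give fold over background (a ratio), −log10 p and −log10 q. Fragments numbered 11840994 to 14156846 in ChIP libraries. Input libraries had 12241177 to 15672630, except that of serum library 2, which had 110273836. In the region table that the authors deposited, each library has a signal and each region a log2 fold, a p-value and a false discovery rate. These signals came out as whole reads over a factor per library in 100% of values (tolerance 0.02 reads). Floors cover counting error only, and the intervals of region differences are 95% confidence intervals from limma, from the moderated spread between libraries.

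RNA was tested with edgeR 4.0.16 (TMM, filterByExpr, robust quasi-likelihood) in R 4.3.3 over 10374 genes, with Benjamini-Hochberg adjustment at 0.05. Each SE was the size of the log2 fold change divided by the root of the F statistic. Regions were tested with limma 3.58.1 on log2(signal + 1) over 40772 regions, without a block. Alternatives were DESeq2 1.42.0, limma-voom, other scalings, filters, thresholds and pseudocounts, a replicate block and left-out libraries. The edgeR tests on recovered reads and a crossed block were added after seeing the data. Tests were checked first on simulated data. Replicate libraries differed by more than sampling noise. Figures and overlaps used Python 3.11.15, with an overlap of at least 1 base.

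The members, lists and tests were chosen with earlier results of these data known. All members are named, with up to 3 called genes per list and direction at a mean of at least 5 CPM, all FGF receptors, each nearest or strongest region and each called by limma or the authors, and the 3 genes most like each member with an absolute log2 fold change of at least 1. Called genes named beyond 3 per list and direction, list genes that did not pass, Timp1 and the regions assigned to Laptm4a were chosen with their values in view.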

Additional observations from a re-analysis of the deposited data

How the results depend on the processing

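The rises of Sdc1 and Sdc4 and the fall of Gpc4 kept direction and call in all 13 RNA alternatives, at log2 fold changes of 2.35 to 3.02, 1.08 to 1.63 and -1.09 to -0.67. The number of cores that fell was 5 with library totals and 1 both with no filter on low counts and at an adjusted p of 0.01, where Sdc3 was lost. Of all genes, 2461 of 15826 fell with no filter and 1618 of 10374 at 0.01, against 2512 of 10374 in the main run. Sdc2 turned to -0.18 with library totals and ran from -0.072 (without FGF-2 library 2) to 0.34 with single libraries left out. With upper-quartile scaling 0 chain synthesis genes rose and 5 fell, and with library totals 0 rose and 6 fell. All genes shifted as well. Of 10374 tested, 1616 rose and 3320 fell with upper-quartile scaling, and 1035 rose and 4675 fell with library totals. With library totals 1 modification gene rose, 2 intracellular partners fell and 5 agrin and perlecan partners fell. At 0.01, 2 modification genes rose and 1 fell, 1 shedding gene rose and 0 intracellular partners fell. With no filter 1 modification gene fell and 2 agrin and perlecan partners rose. In the list of other proteoglycan cores and co-receptors, DESeq2 called 2 genes as rising, against 1 in the main run.

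The RNA numbers did not pair the libraries: same-number correlations were -0.13, 0.05 and 0.39, and 1 of the 3 FGF-2 libraries correlated best with its own number. With the replicate block, 2 genes of the list of other proteoglycan cores and co-receptors rose and 1 modification gene fell. No member's call changed. With single RNA libraries left out, genes of that list of other cores and co-receptors that rose numbered 1 to 2. Modification genes that fell numbered 1 to 2, intracellular partners that fell 0 to 1, and agrin and perlecan partners that rose 1 to 2.

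For H3K27ac, 7 core regions were higher and 0 lower at a mean signal of at least 20, where fewer regions were tested. Of the 28215 regions tested there, 3096 were higher and 977 lower. None (0) were lower with the replicate block or in the authors' deposited table. With edgeR on recovered reads 2 were lower. Leaving out single libraries gave 3 to 15 higher and 0 lower with limma, and 8 to 12 higher and 0 to 1 lower with edgeR. The H3K27ac numbers correlated at -0.22. A crossed pairing gave 17 core regions higher and 1 lower, against 6230 higher and 2194 lower of all 40772 regions. Of the 8 regions over start sites, 6 changed sign, and those of Sdc4 and Gpc4 did not. With edgeR on recovered reads the log2 differences were -0.0081 at Sdc1, -0.14 at Sdc3 and -0.096 at Hspg2. With single libraries left out they ran from -0.10 to 0.34 at Sdc1, -0.55 to 0.21 at Sdc2, -0.054 to 0.071 at Sdc3, -0.34 to 0.098 at Gpc6, -0.17 to 0.25 at Hspg2 and -0.39 to 0.28 at Agrn. The causes were not tested.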
